A study of Bos taurus and Bos frontalis with 6 samples.

Results

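Fat cells lie between the fibres and fibre bundles of skeletal muscle, where they form the marbling of beef. Described here are 4 marker genes of fat cells in the longissimus dorsi, a muscle that runs along the back: PPARG (ENSBTAG00000014333), FABP4 (ENSBTAG00000037526), LEP (ENSBTAG00000014911) and ADIPOQ (ENSBTAG00000019813). They were chosen by name for their known roles, and the Ensembl cattle identifiers were paired with the symbols when the genes were chosen. The count table itself carries no symbols, so that pairing could not be checked against it. Of the 4 identifiers, 3 had a row among the 27270 genes of the table used here. ADIPOQ, the gene of adiponectin, a hormone that fat cells secrete, is not analysed here.

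The libraries came from 3 Gayal (Bos frontalis), a semi-wild bovine, and 3 Banna cattle (Bos taurus). The labels give 3.5 ± 0.5 years as the age of every sample and name no treatment or genotype. The deposited sample sheet adds a batch letter with no word on its meaning. Batch A held Gayal replicate 1 with Banna replicates 1 and 2, and batch B held the remaining 3 libraries. The sheet also classes the fibres of all Banna libraries as coarse and of all Gayal libraries as fine, so fibre class and species cannot be told apart. The labels do not say that replicates were separate animals, so p-values measure the spread between these samples, which may be technical.

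PPARG is a nuclear receptor that drives precursor cells to become fat cells and keeps mature fat cells in that state, together with its partner RXR and the factors of the C/EBP family. FABP4 is a small carrier protein that binds fatty acids in the cytoplasm of fat cells, and its gene is a target of PPARG. It is also made by the endothelium of small vessels and by macrophages. LEP encodes leptin, a hormone that fat cells release into blood in proportion to their stores and that acts on the brain to limit feeding.

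The count table gave estimated counts per gene, and totals ran from 53979857 to 90313051 per library. The totals of batch A, 53979857 to 89392869, overlapped those of batch B, 74125305 to 90313051. Low counts piled up at multiples of a step, taken as the smallest countable unit, which was 3.31 to 3.33 counts in batch A libraries and 4 in batch B libraries. Genes above 0 numbered 15909 to 16317 in batch A and 15097 to 15659 in batch B, with no overlap. Levels are given as CPM, counts divided by the library total on a common scale, after adjustment by TMM factors, which correct totals for a few dominant genes. They are not divided by gene length, so levels of different genes are not compared. Intervals are 95% exact Poisson intervals on the number of steps and cover counting error only. A 0 is given a limit of 3 steps, which lies below the upper end of its interval.

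PPARG was counted in all 6 libraries at levels within 2.33-fold of each other. Its level was 12.5 CPM in Banna replicate 1, 11.3 in Banna replicate 2 and 9.96 in Banna replicate 3, from 956, 1048 and 879 estimated counts. In Gayal it was 8.44 CPM in replicate 1, 5.33 in replicate 2 and 11.5 in replicate 3, from 476, 401 and 946 counts. Gayal replicate 2 was the lowest library, and its interval of 4.33 to 6.47 CPM lay below the intervals of the other 5. Gayal replicate 3 lay among the Banna libraries, so the species overlapped. Gayal libraries averaged 8.43 ± 3.08 CPM, against 11.2 ± 1.25 CPM for Banna libraries (SD, n = 3), and the exact permutation p on log2 levels was 0.3, two-sided, where 0.1 is the smallest this design allows.

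**Figure D1:**
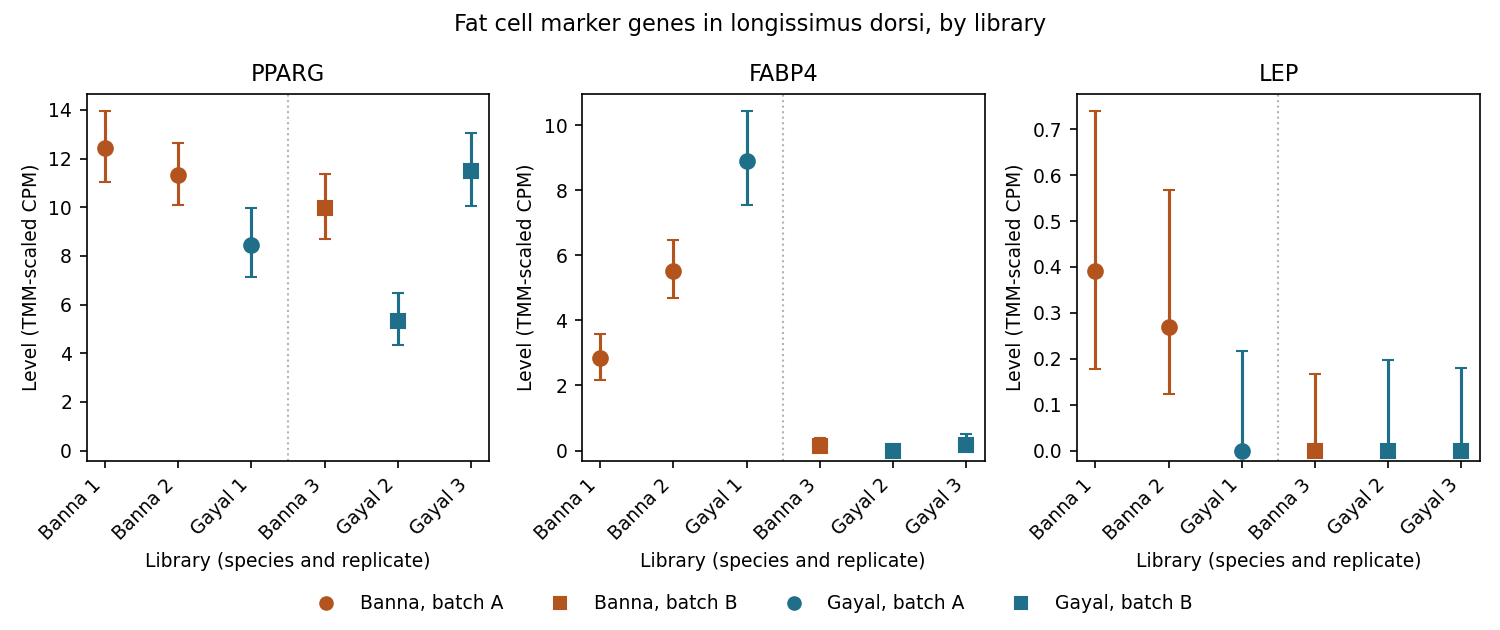
Levels of PPARG, FABP4 and LEP in TMM-scaled CPM on the vertical axis of each panel, by library on the horizontal axis, with batch A left and batch B right of the dotted line. Points are single libraries, colour marks the species, and bars are 95% exact Poisson intervals of the counted steps. PPARG stayed between 5.33 and 12.5 CPM, FABP4 was at 2.84 CPM or more in batch A and at 0.17 CPM or less in batch B, and LEP was above 0 in Banna replicates 1 and 2.

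The species difference of PPARG did not pass the test. In edgeR's quasi-likelihood fit with species and batch, the log2 difference of Gayal minus Banna was -0.36 (SE 0.38), with a Benjamini-Hochberg adjusted p of 0.859 over 14112 genes. Its 95% interval of -1.28 to 0.55 reaches from 2.42-fold lower to 1.46-fold higher in Gayal. Over all genes tested, 0.0425% passed this test. The estimate was negative in every alternative fit run, between -0.65 without Gayal replicate 3 and -0.17 with the replicate number added to the batch term. These fits share libraries, so their common sign adds no further evidence. In batch A the Gayal library was below both Banna libraries, at 0.71 times their mean. In batch B the Banna library lay between the 2 Gayal libraries, whose mean was 0.845 times its level.

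No batch difference of PPARG was called either. Its mean was 10.7 ± 2.07 CPM in batch A and 8.93 ± 3.21 CPM in batch B (SD, n = 3), with overlapping libraries. The fitted difference of batch B minus batch A was -0.13 (SE 0.38, edgeR adjusted p = 0.837), with a 95% interval of -1.04 to 0.78. Of all genes tested, 91.1% had a batch difference at least as far from 0. The spread of PPARG around the fit of species and batch, expressed as edgeR's biological coefficient of variation, was 0.368, against a median of 0.413 over all genes tested.

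FABP4 separated the batches and not the species. Its level was 2.84 CPM in Banna replicate 1, 5.53 in Banna replicate 2 and 8.92 in Gayal replicate 1, the 3 libraries of batch A. These rest on 218, 512 and 503 estimated counts, or about 65, 154 and 152 steps. In batch B it was 0.147 CPM in Banna replicate 3 and 0.17 in Gayal replicate 3, from 13 and 14 counts, about 3 and 4 steps. Gayal replicate 2 had 0 counts, for a limit of 0.16 CPM and a 95% interval that reaches 0.196 CPM. The lowest library of batch A was thus 16.7-fold above the highest of batch B. The highest library of all, Gayal replicate 1, was 55.9-fold above the limit of Gayal replicate 2, its own counting error left out.

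Pooled over libraries, 371 steps were counted for FABP4 in batch A and 7 in batch B. The ratio of the 2 rates was 47.9, with an exact 95% interval of 23.0 to 120 for counting error only. Means were 5.76 ± 3.05 CPM in batch A and 0.106 ± 0.0924 CPM in batch B (SD, n = 3), and the exact permutation p on log2 levels was 0.1, two-sided, the smallest possible. With species in the edgeR fit, the difference of batch B minus batch A was -5.75 on the log2 scale (SE 1.08, 95% interval -8.34 to -3.17, adjusted p = 0.024). Of the 2 genes that could be tested, FABP4 was called and PPARG was not, while 14.6% of all genes tested were called. DESeq2 and limma-voom with the same terms also called FABP4 (adjusted p of 1.19e-07 and 0.0275), on backgrounds of 25.4% and 16.7%.

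A difference between these batches was common, but one as large as that of FABP4 was not. The batches did not overlap in 43.2% of genes tested, and the species did not overlap in 10.4%. A gap between the lowest library of batch A and the highest of batch B at least as wide as that of FABP4 was found in 49 genes, FABP4 included, or 0.347%. By fitted size, 83 genes, or 0.588%, were at least as far from 0 as FABP4.

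**Figure D2:**
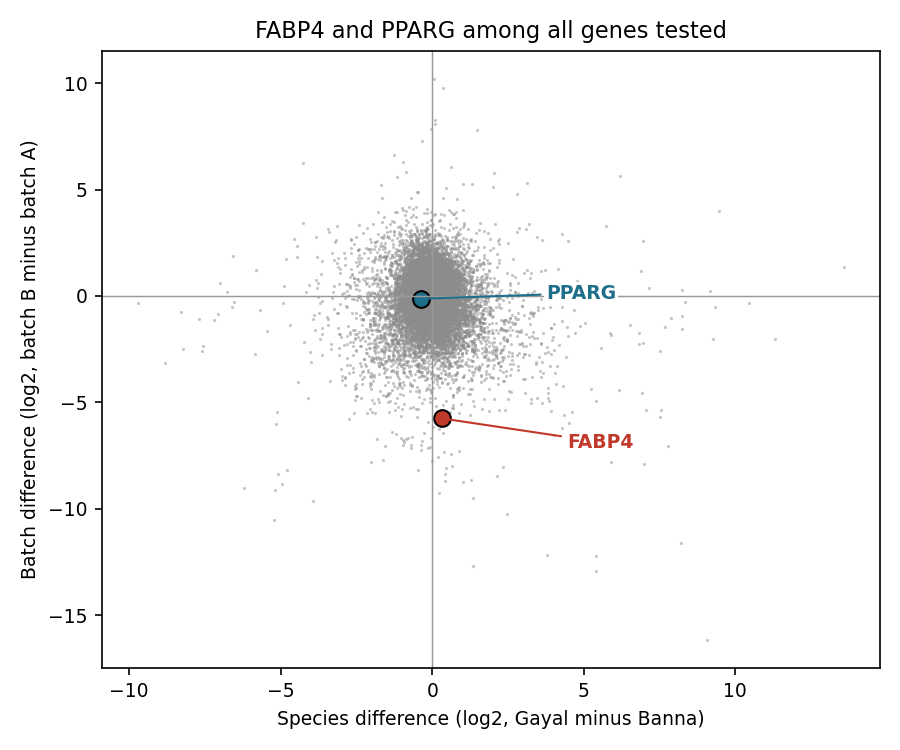
Fitted log2 differences of the 14112 genes tested, with Gayal minus Banna on the horizontal axis and batch B minus batch A on the vertical axis. Each grey point is 1 gene. FABP4 sits at 0.33 and -5.75, near the lower edge of the cloud, and PPARG at -0.36 and -0.13, near its centre.

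The batch call of FABP4, at an adjusted p under 0.05, needed nearly every library. It held without Banna replicate 1 (edgeR adjusted p = 0.0404). It was lost without Banna replicate 2 (adjusted p = 0.0509), Banna replicate 3 (0.0935), Gayal replicate 1 (0.217), Gayal replicate 2 (0.057) or Gayal replicate 3 (0.0725) in the same test. The difference itself stayed between -6.66 without Banna replicate 3, or 101-fold, and -4.81 without Gayal replicate 1, or 28.0-fold. Its unadjusted p in the same edgeR test ran from 0.000197 without Gayal replicate 2 to 0.0406 without Gayal replicate 1. Without any 1 of the 4 libraries Banna replicate 3 and Gayal replicates 1, 2 and 3, edgeR called 0 of all genes between the batches, with 3096 to 4330 genes at an unadjusted p under 0.05.

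Between the species FABP4 gave no call and no stable direction. Gayal libraries averaged 3.03 ± 5.10 CPM, against 2.84 ± 2.69 CPM for Banna libraries (SD, n = 3), so the spread within each species was about as large as its mean or larger. The fit with species and batch gave a log2 difference of 0.33 for Gayal minus Banna (SE 0.94, 95% interval -1.91 to 2.56, edgeR adjusted p = 0.961). That interval allows from 3.76-fold lower to 5.92-fold higher levels in Gayal. The sign turned negative in 5 alternative fits and stayed positive in 14. Negative values came without Banna replicate 1, Gayal replicate 1 or Gayal replicate 3, at -0.02, -0.77 and -0.05. The replicate number in place of batch gave -0.80, and batch B alone gave -0.70. Positive values included 0.96 with limma-voom and 0.72 with counts divided by the step. FABP4 varied more around the fit of species and batch than most genes did. Its biological coefficient of variation, which edgeR moderates across genes, was 0.731, above that of 87.8% of genes tested.

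Within batch A, the Gayal library was above both Banna libraries, 2.13-fold above their mean. The edgeR fit of batch A alone gave 1.09 on the log2 scale (SE 0.62, adjusted p = 0.726), with the single Gayal library assumed to vary like the Banna libraries, and called 0.905% of genes. Within batch B the 3 levels, at 0 to 0.17 CPM, could not be told apart at this depth. The fit there gave -0.70 (SE 2.69, edgeR adjusted p = 0.98) and called 0.0832% of genes. The species by batch interaction, which tests whether the species difference itself differed between batches, was -1.85 for FABP4 (SE 1.92, edgeR adjusted p = 0.902) and 0.25 for PPARG (SE 0.80, edgeR adjusted p = 0.979). It called 0 of 14112 genes (0%) in edgeR, with 931 at an unadjusted p under 0.05. No other tool was run on it.

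The ratio of FABP4 to PPARG within a library does not depend on how libraries are scaled. Given the separation of FABP4 and the narrow range of PPARG it adds no further evidence and is given as a description. Per 100 PPARG counts there were 22.8 FABP4 counts in Banna replicate 1, 48.9 in Banna replicate 2 and 106 in Gayal replicate 1. In batch B there were 1.48 in Banna replicate 3, 1.48 in Gayal replicate 3 and 0 in Gayal replicate 2. In bulk tissue, fewer cells of a type and less RNA per cell cannot be told apart. Levels of endothelial and macrophage markers, from cells that also make FABP4, were not examined, since the table pairs no symbols with identifiers, and their part in this difference was not tested. The step and the number of genes above 0 also differed between the batches, as given above, and their part was not tested. FABP4 lies in RefSeq between FABP9 and FABP12 in a cluster of related fatty acid binding protein genes. Whether reads matched more than 1 of them and were divided was not tested.

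**Figure D3:**
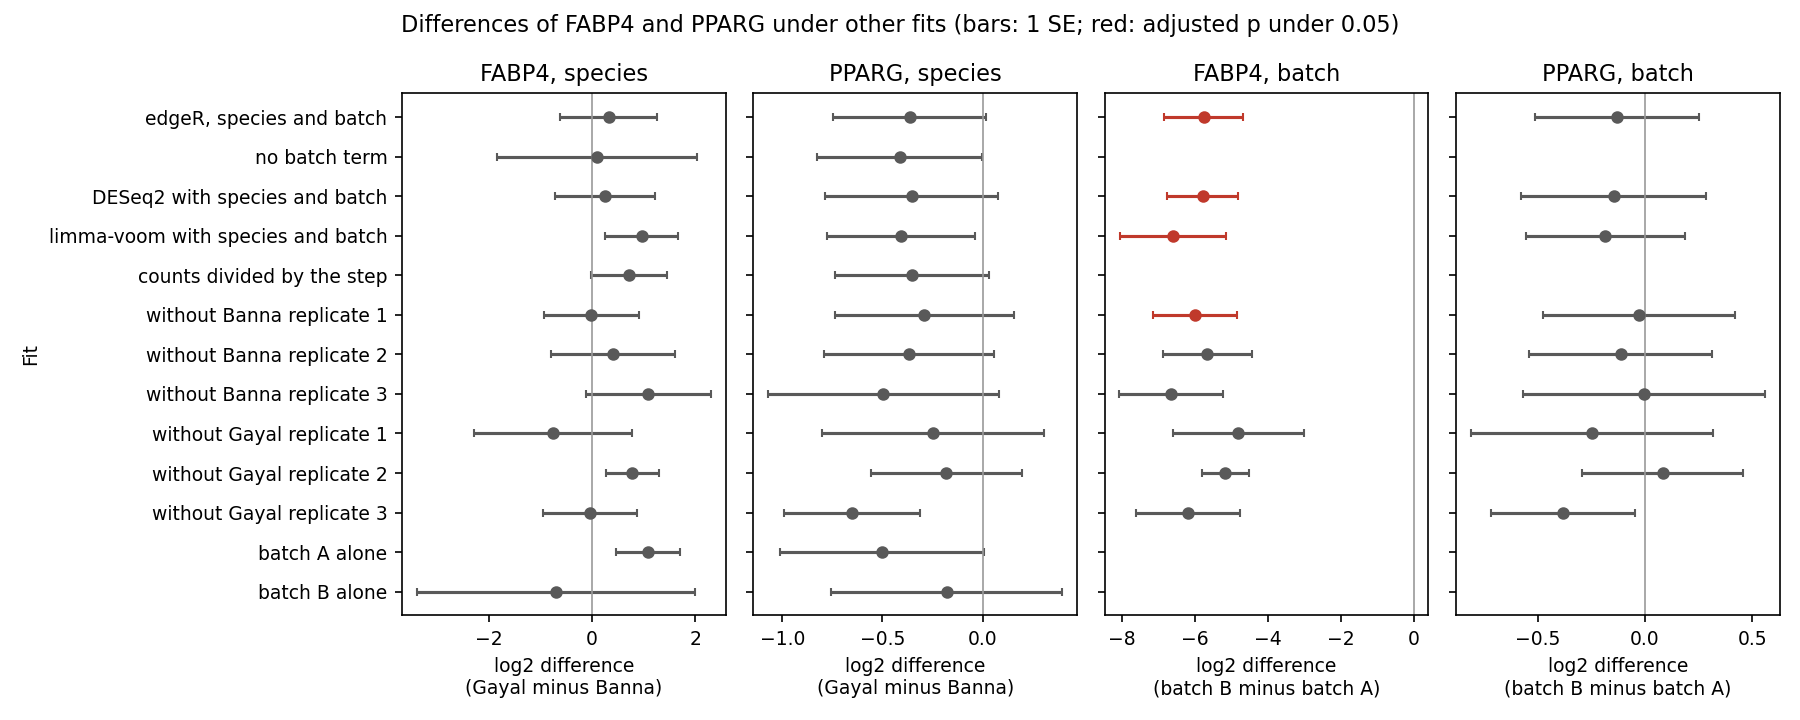
Log2 differences of FABP4 and PPARG on the horizontal axes, between species in the left pair of panels and between batches in the right pair, for the fits listed on the vertical axis. Points are estimates, bars are 1 SE, and red marks an adjusted p under 0.05. A fit without a point has no batch term or was not run for that difference, as with counts divided by the step between batches. FABP4 ran from -6.66 to -4.81 between batches. The estimates of PPARG stayed on the negative side of 0 between species, while the bar of the edgeR fit with species and batch crossed 0.

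LEP was counted in 2 of 6 libraries. Banna replicate 1 had 30 estimated counts and Banna replicate 2 had 25, about 9 and 8 steps, for levels of 0.391 CPM (95% interval 0.178 to 0.741) and 0.27 CPM (0.124 to 0.567). Both were batch A libraries. Banna replicate 3 and all 3 Gayal libraries had 0 counts. The limits of 3 steps were 0.136 CPM in Banna replicate 3 and 0.176, 0.16 and 0.146 CPM in Gayal replicates 1 to 3. The Banna mean of 0.22 ± 0.2 CPM (SD, n = 3) was 1.37-fold above the mean of the limits of the Gayal libraries. That ratio leaves out the counting error of the Banna libraries and is not adjusted for batch, so it is not a lower bound. Levels overlapped, because a Banna library was also at 0 (exact permutation p = 0.4, two-sided).

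Gayal replicate 1 is the library in which FABP4 and LEP part, and this rests on a single 0 of LEP. It had the highest FABP4 level of all and 0 counts of LEP, while the other batch A libraries had both. Its total, 53979857, was the lowest of all libraries. The 95% interval of its LEP level reached 0.2165 CPM, which lies within the intervals of Banna replicates 1 and 2. At the pooled rate of those Banna libraries, 5.69 steps of LEP would be counted in a library of its size, and the ratio of rates had a lower exact 95% bound of 1.38. That bound compares reads of these 3 libraries, not the species. In the edgeR fit of batch A alone, LEP passed the filter only through the Banna libraries, where it was above 0. Its log2 difference of Gayal minus Banna there was -7.65. That size rests on the 0 of a single Gayal library and is given as a description. LEP did not pass the low-count filter of edgeR's fit of all 6 libraries and so has no value there. Without the filter edgeR did not call it between species (adjusted p = 0.776) or batches (adjusted p = 0.232), where it called 0.226% and 10.4% of genes. DESeq2 did not call it either (adjusted p of 0.876 and 0.332), with 3.46% and 25.4% of genes called.

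The 3 genes thus gave 3 patterns in the same libraries, though LEP parts from FABP4 by the 0 of a single library. PPARG was counted everywhere, within a 2.33-fold range, FABP4 was high in the 3 batch A libraries of both species, and LEP was above 0 in Banna libraries of batch A. None was called between Gayal and Banna. As a check of the label, all 3 markers were counted in 2 of the batch A libraries and FABP4 and PPARG in the third. In batch B, PPARG was counted in each library, FABP4 came to at most 4 steps and LEP was at 0. PPARG is also made outside fat cells, so its level alone does not show them. The tissue label could not be checked against muscle fibre markers, for want of symbols.

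Genes with a pattern like these were looked for by Pearson r of log2 CPM over the 6 libraries. With FABP4, 1097 genes, or 7.77% of those tested, had an r of 0.9 or more, and with PPARG 103 genes, or 0.73%. The 6 libraries share 2 batches, and r was not computed within them. The highest mean r to both was found for ENSBTAG00000008568, at 0.878 with FABP4 and 0.883 with PPARG, and then for ENSBTAG00000009873, at 0.933 and 0.82. With a prior count of 0.5 in place of 2 the first stayed at rank 1 and the second moved to rank 5. Both were rare transcripts at 0 in Gayal replicate 2. ENSBTAG00000008568 had 43, 54 and 13 counts in Banna replicates 1 to 3 and 16, 0 and 14 in Gayal replicates 1 to 3. ENSBTAG00000009873 had 47, 62 and 12 in Banna and 29, 0 and 16 in Gayal. The files do not pair these identifiers with gene names.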

How the data were processed

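Muscle RNA of 3 Gayal and 3 Banna samples was sequenced as paired-end Illumina reads, per the labels' protocols. Per the submitters' processing notes, the tools and builds were HISAT2 2.0.4 and ARS-UCD1.2, a cattle genome. No Gayal genome is named, and whether a genome of another species lowered Gayal counts, among them those of PPARG and LEP, was not tested. How genes were annotated and counted, and whether strand was used, is not given in the sources used here. The authors deposited estimated counts, whole numbers with no scaling for depth, and a sample sheet with batch letters. The design assumed read counts; the values, stepped at low counts, were treated as estimated counts and the same test was kept. The step is the spacing at whose multiples most genes piled up, among values up to 60.

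The genes, lists and fits were chosen with earlier results of these data known. Low counts were removed with filterByExpr, leaving 14112 genes, and edgeR 4.0.16 in R 4.3.3 fitted species and batch with TMM factors and a robust quasi-likelihood F test. Calls are Benjamini-Hochberg adjusted p under 0.05. SE is the log2 difference divided by the square root of F. Within-batch fits have 1 residual degree of freedom. Exact permutation tests used log2(CPM + 0.1), and likeness used a prior count of 2. DESeq2 1.42.0, limma-voom (limma 3.58.1), other scalings and filters, counts divided by the step, a block for the replicate number and fits with 1 library left out were tried as alternatives. Counts divided by the step and the replicate block were tried for the species difference only. The batch difference was therefore not checked against the step. The RefSeq table has 0 entries with an Ensembl identifier, so none of the 27270 identifiers could be matched. Gene lists fixed by symbol were therefore not tested. The rule named the chosen genes and at most 2 identifiers of like pattern. No coordinates are printed because the table's build differs from that of the files.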

Additional observations from a re-analysis of the deposited data

How the results depend on the processing

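For the changes given here the cause was not tested, though a fit with a library left out has fewer samples. Between species, 6 genes higher and 0 lower in Gayal became 0 higher with no batch term, 430 and 228 with DESeq2, 10 and 3 with limma-voom, 3 higher with library totals, 41 and 2 without a filter, 1 lower with counts divided by the step, 129 and 10 in batch A alone, 3 lower in batch B alone, and 0 to 7 higher and 0 to 1 lower with a library left out. Between batches, 1091 genes higher and 973 lower became 2016 and 2431 with DESeq2, and, with a library left out, 0 to 720 higher and 0 to 553 lower. The species difference of FABP4 was -0.70 in batch B alone and -0.77 to 1.09 with a library left out. That of PPARG was -0.65 to -0.18 with a library left out. The batch difference was -6.66 to -4.81 for FABP4 and -0.38 to 0.0832 for PPARG. Library totals in place of TMM moved the median species difference of all genes from -0.03 to 0.07, and gave 0.42 for FABP4 and -0.24 for PPARG. With 0 to 4 steps of FABP4 per library in batch B and 0 to 9 of LEP, depth limits both.

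With the replicate number as a block in place of batch, 0 genes were called higher, and the species difference was -0.80 for FABP4 and -0.48 for PPARG. With the block beside batch, 0 genes were called higher, and the differences were 1.03 and -0.17. Libraries with the same number had deviations from their species means that correlated at 0.253, -0.448 and 0.279 across genes, for replicates 1 to 3. The 2 libraries of replicates 1 and 3 shared a batch, and those of replicate 2 did not. The deviations were not adjusted for batch, so these correlations cannot decide whether samples were paired. The labels give no shared source, and the samples were not taken as paired.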
